A study of Mus musculus with 6 samples.

Results

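Genes that pattern the diencephalon and midbrain were followed in forebrains of mouse embryos at 15.5 days post coitum. The set was 38 genes chosen by symbol for their regions of expression, and all 38 were found among the 33084 Ensembl genes of the count table. Bulk RNA was compared between 3 wt and 3 Dyrk1a+/- samples, all microdissected at the same age from the Dyrk1a+/- line and labelled as biological replicates. Dyrk1a+/- embryos are heterozygous for inactivation of Dyrk1a, which encodes a kinase of brain growth. Neither the extent of the lesion nor whether a sample is a single embryo is stated in the labels. The genes fall into 11 of thalamus and pretectum, 15 of hypothalamus, 10 of midbrain, and Zic1 with Zic4, which are active in septum and other medial and dorsal territories as well.

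The diencephalon forms behind the telencephalon and gives rise to the thalamus, the pretectum and the prethalamus, with the hypothalamus below. Each territory is set up by a combination of homeodomain, forkhead, bHLH and GATA transcription factors that keep progenitors and young neurons to their regional fate. Most of these factors have no role in cortex, so in a dissected forebrain their RNA also reads how much diencephalon came with the telencephalic vesicles.

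Libraries held 18699434 to 32865708 counts, and levels are given as CPM, counts scaled by TMM-adjusted library size. Dyrk1a was at 174 ± 12.9 CPM in wt and 151 ± 6.28 in Dyrk1a+/- (SD, n = 3 per genotype), and did not pass the test (edgeR, Benjamini-Hochberg adjusted p = 0.59). Principal component 1 (34.9% of variance) separated wt replicate 3 and Dyrk1a+/- replicate 2 from the rest, so differences are also given inside that pair and inside the remaining 4 libraries.

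Across the dissections the telencephalon dominated, the thalamus and hypothalamus were present, and hindbrain was close to absent. Of 14 telencephalic genes listed for comparison, Bcl11b and Neurod6 were the highest, and the summed level of the list was 1094 to 1257 CPM per library. The 11 thalamic and pretectal genes summed to 188 to 298 CPM, the 15 hypothalamic genes to 34.0 to 43.6 CPM and the 10 midbrain genes to 12.9 to 21.6 CPM. By contrast, 16 hindbrain and spinal cord genes, among them 8 Hox genes, together gave 0.640 to 0.912 CPM, led by Hoxc8 (mean 0.273) and Tph2 (0.176). Hoxc8 had 2, 9 and 6 counts in wt and 7, 10 and 5 in Dyrk1a+/-, with overlap. Tph2 had 10, 8 and 8 counts in wt and 0, 1 and 2 in Dyrk1a+/-, without overlap. A list of 10 other midbrain and isthmus genes summed to 45.8 to 54.6 CPM, most of it from Slc18a2, the vesicular monoamine transporter (mean 33.3 CPM), and Ddc (5.93). Its members differed widely, since Wnt1, the isthmic signal, and Pax2 had at most 0.121 CPM in any library and the dopaminergic regulator Pitx3 at most 0.213 CPM. The engrailed genes En1 and En2, which define the midbrain and isthmus, were at 0.0533 to 0.912 CPM. Other midbrain members, such as Tal2, Gata2, Gata3 and Pax3, also act in the diencephalon.

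**Figure D1:**
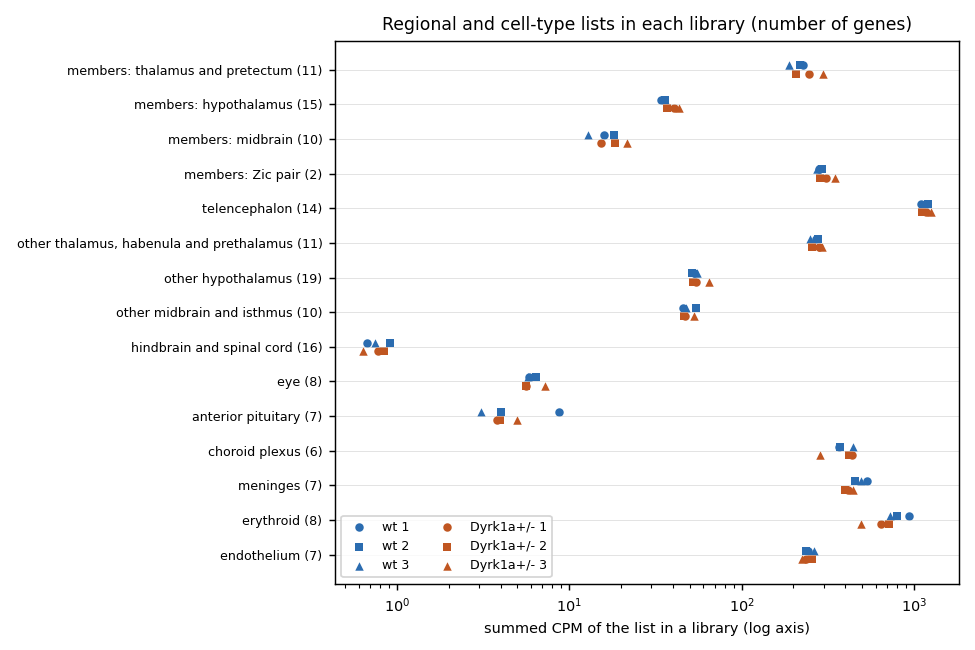
Summed CPM (log axis) of each regional or cell-type list in each library, blue for wt and orange for Dyrk1a+/-, with the number of genes in brackets. The hindbrain and spinal cord list lies below 1 CPM in all 6 libraries, and the telencephalic list at 1094 CPM or more.

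Levels spanned a wide range. Per kilobase of exon, averaged over the 6 libraries, Zic1 was at 36.5 CPM, Zic4 at 8.80, the thalamic selector Tcf7l2 at 8.19, the LIM-homeodomain gene Lhx9 at 6.95 and the orphan receptor gene Rora at 4.48. Hypothalamic genes were led by the melanin-concentrating hormone precursor Pmch (2.95 CPM per kilobase) and Sim1 (1.87). Midbrain genes were led by Tal1 (1.35). At the low end were Rax (0.109), En2 (0.111) and En1 (0.0778 CPM per kilobase). Of the 35 genes with enough counts to be tested, 4 had a mean under 1 CPM, 18 had 1 to 3 CPM and 13 had 3 CPM or more.

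**Figure D2:**
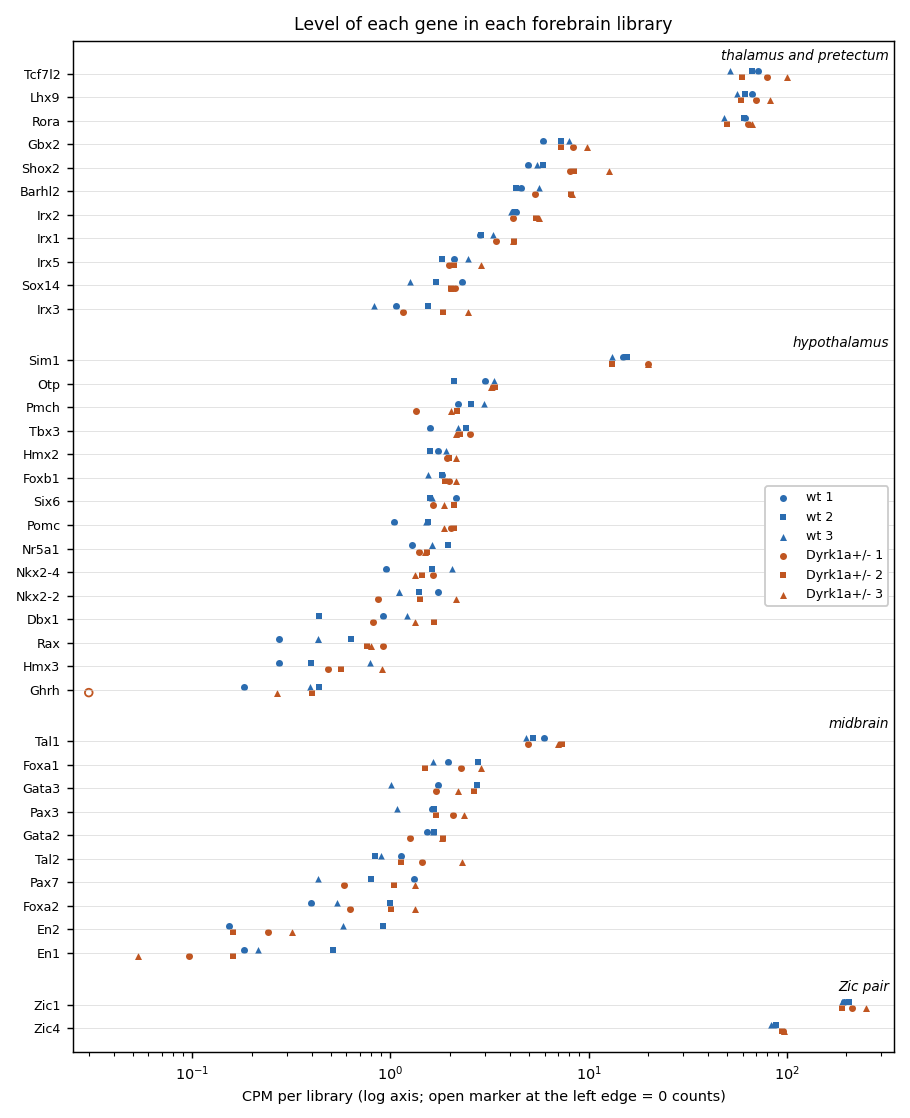
CPM of each of the 38 genes in each library on a log axis, wt in blue and Dyrk1a+/- in orange, grouped by region and ordered by mean level. Most genes of hypothalamus and midbrain lie near 1 to 3 CPM, and the genotypes overlap for most of them.

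Between genotypes no member passed the test, and the small differences were mostly toward higher levels in Dyrk1a+/-. By edgeR's quasi-likelihood test 0 of 35 members passed at a Benjamini-Hochberg adjusted p under 0.05, where 0.0103% of all 19403 genes tested did (2 genes). Of the 35 tested, 32 had a positive log2 fold change (Dyrk1a+/- against wt) and 3 a negative one, against 51.2% positive over all genes tested. The median log2 fold change was 0.22 for the members and 0.0048 for all genes tested. By region the median was 0.27 for thalamus and pretectum (11 of 11 positive), 0.21 for hypothalamus (11 of 14), 0.27 for midbrain (8 of 8) and 0.15 for the Zic genes. At an unadjusted p under 0.05 there were 7 members, Shox2, Barhl2, Rax, Pomc, Irx1, Tal2 and Zic4, all higher in Dyrk1a+/-, where 7.88% of all genes were below that p 3.27% were below it and higher, and 4.61% were below it and lower. In 8 tested members all Dyrk1a+/- libraries lay above all wt libraries, against 6.53% of all genes, and in 1, Pmch, all lay below (7.49%). In bulk RNA, fewer or more cells of a type and less or more RNA per cell cannot be told apart.

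The 3 genes left out of the test for low counts, En1, En2 and Ghrh, all had lower means in Dyrk1a+/-, so 32 of all 38 genes had a higher mean there and 6 a lower mean. Rax, Foxa2 and Hmx3 passed the low-count filter with all 3 Dyrk1a+/- libraries but only 2, 2 and 1 of the wt libraries above its minimum of 0.398 CPM, so their positive sign is in part a condition of being tested.

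**Figure D3:**
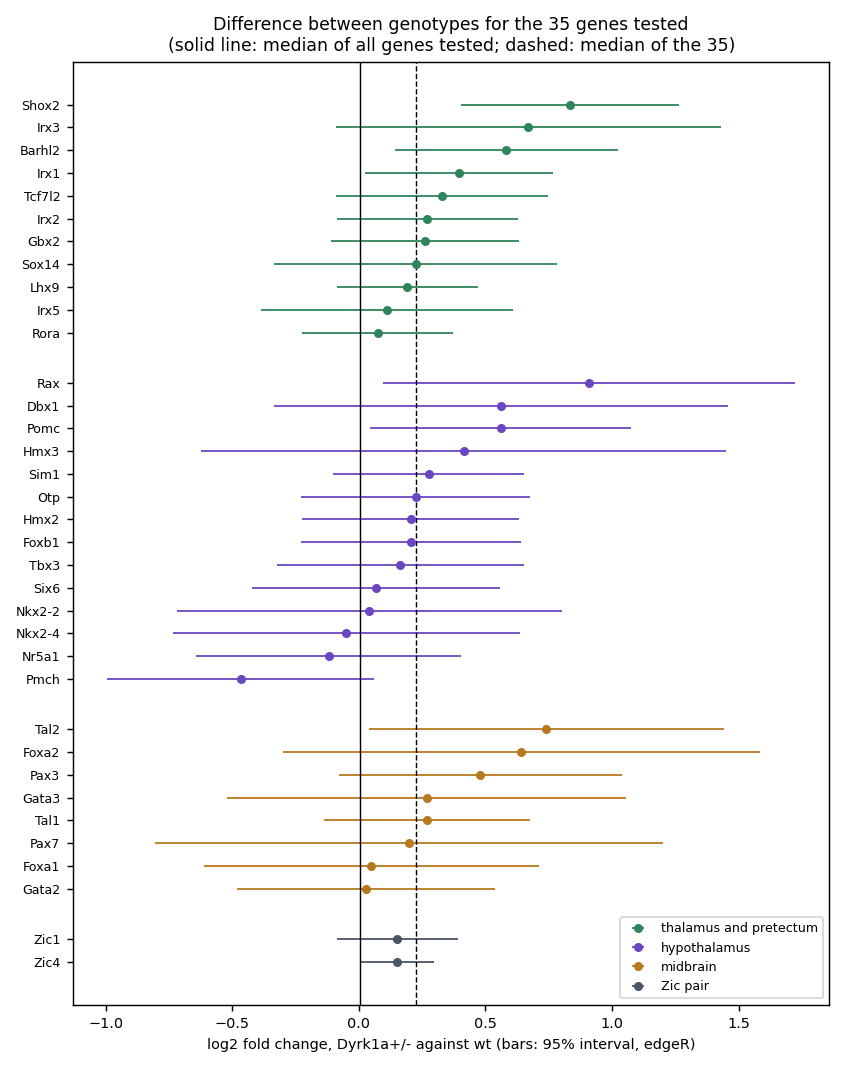
Log2 fold change, Dyrk1a+/- against wt, with 95% intervals from edgeR for the 35 genes tested, coloured by region. The dashed line at 0.22 is their median and the solid line at 0.0048 the median of all genes tested, and 7 of the 35 intervals leave out 0.

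Dyrk1a+/- replicate 3 held the highest value for most members. It was the highest of the 6 libraries for 21 of 35 tested members and the lowest for 0, while over all genes tested it was highest for 19.4% and lowest for 21.3%. In thalamus and pretectum it was highest for 9 of 11 genes. In the same library the telencephalic list was also at its highest sum (1257 CPM), and the choroid plexus list (286 CPM, against 366 to 440, led by Ttr and Clic6) and the erythroid list (491 CPM, against 644 to 931) were at their lowest. Without this library the median of the members was 0.16, with 27 positive and 8 negative, and 1 of 35 was at an unadjusted p under 0.05, where 4.25% of all genes were in the same fit. The part of this library's tissue in the result was not tested. At the other end, wt replicate 3 was lowest for 13 of 35 and wt replicate 1 for 10, against 20.5% and 16.8% of all genes.

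**Figure D4:**
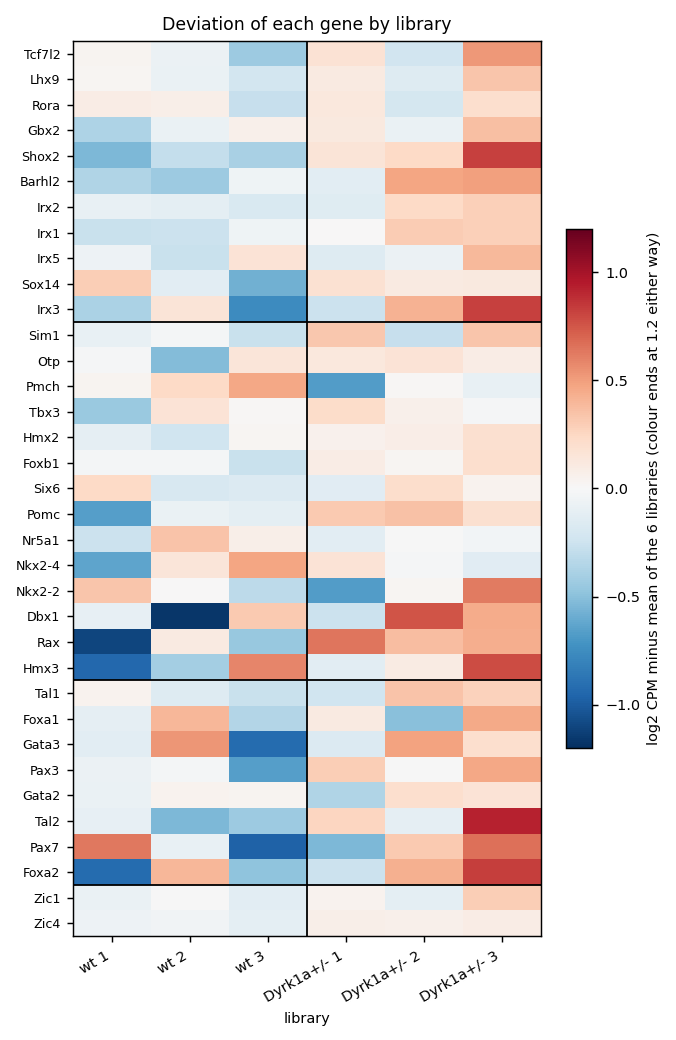
Log2 CPM of each tested gene in each library minus its mean over the 6 libraries (red above, blue below), with lines between regions and genotypes. The column of Dyrk1a+/- replicate 3 is red for nearly all thalamic and pretectal genes.

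Thalamic and pretectal genes had the lowest p of the set. Shox2 (ENSMUSG00000027833, GRCm38 chromosome 3, 66971727 to 66981771, minus strand) encodes a homeodomain factor of thalamic neurons. It was at 4.94, 5.91 and 5.52 CPM in wt replicates 1 to 3 and at 8.02, 8.49 and 12.7 CPM in Dyrk1a+/- replicates 1 to 3. All Dyrk1a+/- libraries were above all wt libraries, with the gap widest in replicate 3. Shox2 had a log2 fold change of 0.83 (SE 0.19, 95% from 0.40 to 1.26), a 1.78-fold level, with an edgeR unadjusted p of 0.0018 and a Benjamini-Hochberg adjusted p of 0.483. The exact 2-sided permutation p was 0.1, the smallest that 3 against 3 libraries allow. DESeq2 called Shox2 (adjusted p = 0.0496), the only member it called, where 0.17% of genes with a DESeq2 adjusted p were called. Over all 12 alternative fits the adjusted p of Shox2 ran from 0.0496 to 0.999 and its log2 fold change from 0.60, without Dyrk1a+/- replicate 3, to 0.95. Shox2 shares 153 exon bases with Rsrc1 on the opposite strand, which had 45.1 and 48.8 CPM in wt and Dyrk1a+/- (log2 fold change 0.11).

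Barhl2 (ENSMUSG00000034384, chromosome 5, 106452523 to 106458166, minus strand) encodes a BarH homeodomain factor of the caudal diencephalon. It was at 4.55, 4.32 and 5.62 CPM in wt and at 5.36, 8.13 and 8.22 CPM in Dyrk1a+/-. The genotypes overlapped, since Dyrk1a+/- replicate 1 lay below wt replicate 3. Its log2 fold change was 0.58 (SE 0.195, edgeR unadjusted p = 0.0153, Benjamini-Hochberg adjusted p = 0.529), and the exact permutation p was 0.2.

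The sequences before the starts of Shox2 and Barhl2 are shown because these genes had the lowest p of all members. They are the 250 bases before the RefSeq start on GRCm38.p6, at chr3:66981772-66982021 and chr5:106458167-106458416, both read 5′ to 3′ on the minus strand. Capitals mark matches, on either strand, to 6 motifs. These were the core promoter box TATAAA, the Sp1-type box GGGCGG, the NF-Y box CCAAT, the homeodomain core TAATTA, the TCF/LEF core CTTTGA and the GATA-factor core AGATAA, and no 2 matches overlapped in the windows printed here.
Shox2: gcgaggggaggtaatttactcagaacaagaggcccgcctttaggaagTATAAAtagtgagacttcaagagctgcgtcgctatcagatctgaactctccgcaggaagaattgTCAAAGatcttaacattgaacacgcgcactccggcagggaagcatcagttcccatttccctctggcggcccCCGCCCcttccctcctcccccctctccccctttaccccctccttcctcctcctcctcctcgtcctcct
Barhl2: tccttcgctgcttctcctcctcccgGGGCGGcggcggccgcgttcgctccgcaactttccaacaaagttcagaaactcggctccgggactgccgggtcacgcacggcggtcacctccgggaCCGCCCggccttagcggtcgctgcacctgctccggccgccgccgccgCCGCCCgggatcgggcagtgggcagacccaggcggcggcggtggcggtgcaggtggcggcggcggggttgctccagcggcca
Shox2 held TATAAA 203 to 198 bases before the start, the reverse complement of CTTTGA at 139 to 134 and that of GGGCGG at 68 to 63. Barhl2, with 74.8% GC and 36 CpG dinucleotides, held 3 GC boxes. CpG-rich windows were usual among the members. Of the 38 genes 30 matched the table, with 37 start sites, whose median window had 61.6% GC and 16 CpG dinucleotides, against 52.4% and 6 over all 32851 windows. GGGCGG stood in 24 of the 37 (64.9%) and in 32.7% of all windows, and TATAAA in 10 (27.0%) and 12.4%. TAATTA was found in 2 of 37 (4.84% of all), CTTTGA in 6 (13.8% of all), AGATAA in 5 (9.99% of all) and CCAAT in 12 (33.8% of all). A match to such short letters does not show that a factor binds there.

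The Iroquois genes, homeodomain factors that set the position of the thalamus and pretectum, lie in 2 clusters. Irx1 and Irx2 are on chromosome 13, 665 kb apart, and Irx3 and Irx5 on chromosome 8, 556 kb apart. Irx1 was at 2.84, 2.86 and 3.30 CPM in wt and 3.43, 4.23 and 4.16 in Dyrk1a+/-. The genotypes did not overlap, with wt replicate 3 and Dyrk1a+/- replicate 1 close to each other. The log2 fold change of Irx1 was 0.40 (SE 0.164; edgeR unadjusted p = 0.0397, adjusted p = 0.614). Its neighbour Irx2, at 4.30, 4.24 and 4.05 CPM in wt and 4.15, 5.43 and 5.602 in Dyrk1a+/-, had a log2 fold change of 0.27 (SE 0.158), with overlap in replicate 1. In the other cluster Irx3 had 0.67 (SE 0.336; 1.07, 1.55 and 0.824 CPM against 1.16, 1.85 and 2.45) and Irx5 had 0.11 (SE 0.22). Neighbours in a cluster had positive fitted values, and the difference between neighbours was not tested. The sign of Irx5 turned in 1 of 12 alternatives. Irx3os overlaps Irx3 on the opposite strand by 124 bases and had 46 counts over all libraries, against 213 for Irx3.

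For the abundant thalamic genes Tcf7l2, Lhx9 and Rora, the range within either genotype was wider than the difference between the genotype means. Tcf7l2, the HMG-box effector of Wnt signalling that specifies thalamic and habenular neurons, was at 71.9, 67.0 and 52.0 CPM in wt and 79.4, 59.8 and 101 CPM in Dyrk1a+/-. Lhx9 was at 66.5, 61.8 and 56.3 CPM in wt and 70.3, 58.7 and 82.2 in Dyrk1a+/-. Rora, which thalamocortical neurons express, was at 61.8, 61.2 and 48.2 CPM in wt and 63.6, 50.1 and 66.7 in Dyrk1a+/-. In each of these 3 genes the lowest library of either genotype was that of the pair that stood apart, wt replicate 3 and Dyrk1a+/- replicate 2. Their log2 fold changes were 0.33 (SE 0.184), 0.19 (SE 0.122) and 0.075 (SE 0.132), and that of Rora turned sign in 2 of 12 alternatives. Such a dip in both libraries of the pair was seen in 10 of 35 tested members (Lhx9, Tcf7l2, Rora, Sox14, Foxb1, Sim1, Pax3, Foxa1, Zic1 and Zic4) and in 23.7% of all genes tested. The opposite pattern was seen in 4 (Irx1, Otp, Dbx1 and Pmch) and in 23.6% of all genes. Gbx2, a homeodomain gene needed for thalamic differentiation, had 0.26 (SE 0.164; 7.05 against 8.46 CPM). Sox14, a marker of thalamic and pretectal interneurons, had 0.22 (SE 0.247; 1.75 against 2.05 CPM). The overlapping D130058E05Rik, opposite to Gbx2, had 140 counts against 1136 for Gbx2.

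Other thalamic, habenular and prethalamic genes were read from a list without the members. Of 11 tested, 9 had a positive log2 fold change, with a median of 0.17, and 0 passed edgeR's test over all genes or had an unadjusted p under 0.05. The most abundant were Slc17a6, a vesicular glutamate transporter (100 ± 6.94 CPM in wt, 107 ± 6.91 in Dyrk1a+/-, SD, n = 3 per genotype), and Prox1 (59.8 and 56.7 CPM). In the telencephalic list 11 of 14 were positive, with a median of 0.11. The mean log2 CPM of the 11 thalamic and pretectal members minus that of the telencephalic list was -2.42, -2.55 and -2.59 in wt and -2.37, -2.28 and -2.15 in Dyrk1a+/-, without overlap between genotypes. Replicate 1 of wt and replicate 1 of Dyrk1a+/- lay close to each other. Over all tested members this balance was -3.62, -3.65 and -3.70 in wt and -3.57, -3.42 and -3.39 in Dyrk1a+/-, also without overlap. How often other lists of genes lie apart in this way was not tested. The balance overlapped for the hypothalamic members (-4.73, -4.72 and -4.50 in wt, -4.59, -4.43 and -4.54 in Dyrk1a+/-) and for the midbrain members (-4.65, -4.63 and -5.14, and -4.78, -4.51 and -4.35). It also overlapped for the Zic genes (1.77, 1.68 and 1.65, and 1.79, 1.71 and 1.74). For the other thalamic list the same balance was -2.19, -2.33 and -2.28 in wt and -2.32, -2.17 and -2.10 in Dyrk1a+/-, with overlap.

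Of 14 hypothalamic genes tested 11 had a higher fitted level in Dyrk1a+/-, and Pmch, Nr5a1 and Nkx2-4 a lower one. Rax (ENSMUSG00000024518, chromosome 18, 65928277 to 65939787), a homeodomain factor of the ventral hypothalamus and the eye field, had 9, 16 and 12 counts in wt (0.275, 0.635 and 0.430 CPM) and 19, 19 and 15 in Dyrk1a+/- (0.918, 0.765 and 0.800 CPM). The genotypes did not overlap, at 9 to 19 reads per library. Only 2 wt libraries were above the low-count minimum, against 3 of Dyrk1a+/-, so this is in part a condition of being tested. Rax had a log2 fold change of 0.91 (SE 0.359, 95% from 0.097 to 1.72, edgeR unadjusted p = 0.0322, adjusted p = 0.591), and it ran from 0.64 without wt replicate 1 to 1.23 without wt replicate 2. Raxos1 shares 1604 exon bases with Rax on the opposite strand and had 7 counts over all libraries. The eye list summed to 5.603 to 7.20 CPM, nearly all of it from Tyr, the melanin enzyme of pigment cells (1.81 to 4.05 CPM), and Crx, which the pineal gland also expresses (1.93 to 3.34 CPM). Atoh7 and Pmel were at or below 0.213 CPM in every library. The part of eye tissue in the level of Rax was not tested.

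Pomc (ENSMUSG00000020660, chromosome 12, 3954951 to 3960642, plus strand) encodes the melanocortin precursor of arcuate neurons and the pituitary. It was at 1.04, 1.55 and 1.504 CPM in wt and 2.03, 2.09 and 1.87 CPM in Dyrk1a+/-. The 3 Dyrk1a+/- libraries lay together above all wt libraries, and wt replicate 1 was the lowest. The log2 fold change was 0.56 (SE 0.228; edgeR unadjusted p = 0.036, adjusted p = 0.606), and 0.39 without wt replicate 1. Among pituitary markers Pitx1, Cga and Tshb had at most 0.153 CPM in any library, Lhx3 reached 0.322 CPM and Lhb 0.466 CPM. Pou1f1 was at 2.47 to 8.33 CPM, and was highest in wt replicate 1. The part of pituitary tissue in the level of Pomc was not tested.

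Pmch (ENSMUSG00000035383, chromosome 10, 88091072 to 88092375, plus strand), the melanin-concentrating hormone precursor of the lateral hypothalamus, went the other way. It was at 2.20, 2.54 and 2.97 CPM in wt and 1.35, 2.173 and 2.03 CPM in Dyrk1a+/-. All Dyrk1a+/- libraries were below all wt libraries, with the smallest gap between wt replicate 1 and Dyrk1a+/- replicate 2. Pmch had a log2 fold change of -0.47 (SE 0.233, 95% from -0.99 to 0.062, edgeR unadjusted p = 0.0768, adjusted p = 0.687), and -0.29 without Dyrk1a+/- replicate 1. Parpbp shares 435 exon bases with Pmch on the opposite strand, and was at 12.8 and 14.7 CPM (log2 fold change 0.20).

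The windows before the starts of Pomc and Pmch are shown because these 2 peptide genes lay on opposite sides of wt. They are at chr12:3954695-3954944 and chr10:88090822-88091071 on the plus strand of GRCm38.p6, with capitals as above.
Pomc: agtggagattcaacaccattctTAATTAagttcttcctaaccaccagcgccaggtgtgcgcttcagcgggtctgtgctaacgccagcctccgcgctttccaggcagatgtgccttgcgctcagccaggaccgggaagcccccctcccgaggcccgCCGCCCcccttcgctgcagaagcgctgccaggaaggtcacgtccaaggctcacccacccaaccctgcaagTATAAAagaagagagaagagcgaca
Pmch: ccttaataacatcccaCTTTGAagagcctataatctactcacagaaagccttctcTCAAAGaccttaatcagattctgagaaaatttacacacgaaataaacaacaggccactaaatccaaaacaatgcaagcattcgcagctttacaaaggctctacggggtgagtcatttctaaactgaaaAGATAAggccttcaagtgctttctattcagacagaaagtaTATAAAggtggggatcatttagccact
Both had TATAAA close to the start, at 25 to 20 bases before it in Pomc and 27 to 22 in Pmch. They differed in composition, with 60% GC and 15 CpG dinucleotides in Pomc and 38.4% and 3 in Pmch. AGATAA and 2 matches to CTTTGA stood in the Pmch window, and GGGCGG and TAATTA in that of Pomc.

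The third peptide gene, Ghrh, the growth hormone-releasing hormone precursor, had 6, 11 and 11 counts in wt and 0, 10 and 5 in Dyrk1a+/-. A count of 0 in Dyrk1a+/- replicate 1 allows up to 0.145 CPM (3 counts, for counting error only), and the gene was too low to test. In a separate list of hypothalamic genes 8 of 13 tested were positive, with a median of 0.17. At an unadjusted p under 0.05 were Sim2, higher, and Crh and Npy, lower, and 0 passed edgeR's adjusted threshold. The most abundant of that list were Nkx2-1, which the medial ganglionic eminence also expresses (13.3 and 14.8 CPM in wt and Dyrk1a+/-), and Lmx1a (8.47 and 10.1 CPM).

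The remaining hypothalamic factors had small differences for their spread. Sim1 and Otp, which specify neuroendocrine neurons, had log2 fold changes of 0.28 (SE 0.167; 14.9, 15.6 and 13.1 CPM against 19.9, 13.1 and 19.95) and 0.22 (SE 0.2; 2.81 against 3.29 CPM). Sim1 in Dyrk1a+/- replicate 2 was as low as in wt replicate 3, and the 2 other Dyrk1a+/- libraries were above all wt libraries. Foxb1, a forkhead factor of the mammillary body, and the neighbouring homeobox genes Hmx2 and Hmx3, 3.85 kb apart on chromosome 7, had 0.21 (SE 0.192), 0.21 (SE 0.189) and 0.41 (SE 0.457). For Foxb1 (1.73 ± 0.166 and 2.00 ± 0.123 CPM) and Hmx2 (1.74 ± 0.156 and 2.01 ± 0.107 CPM; SD, n = 3 per genotype) the genotypes did not overlap. B230323A14Rik, opposite to Foxb1 over 418 exon bases, had 315 counts against 277 for Foxb1. The progenitor factor Dbx1 had 0.56 (SE 0.396), with wt replicate 2 at 0.436 CPM and Dyrk1a+/- replicate 2 at 1.65 CPM as the extremes. Tbx3, a T-box factor of the arcuate nucleus, had 0.16 (SE 0.215) and the homeobox gene Six6 0.068 (SE 0.217). Six6 shares 192 exon bases with 4930447C04Rik on the opposite strand, which was at 3.08 and 1.66 CPM in wt and Dyrk1a+/- (log2 fold change -0.89). Nkx2-2, Nkx2-4 and Nr5a1, the last a nuclear receptor of the ventromedial nucleus, had 0.042 (SE 0.336), -0.049 (SE 0.302) and -0.12 (SE 0.231). The sign turned in 3 of 12 alternatives for Six6, Nkx2-2 and Nkx2-4 and in 1 for Nr5a1. The 95% interval for Nkx2-2 ran from -0.72 to 0.80, so sizeable differences either way cannot be told from none at this depth.

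Midbrain genes were led by Tal2. This bHLH factor of midbrain and pretectal GABAergic neurons (ENSMUSG00000028417, chromosome 4, 53779705 to 53788712, plus strand) was at 1.13, 0.833 and 0.895 CPM in wt and 1.45, 1.13 and 2.29 CPM in Dyrk1a+/-. Dyrk1a+/- replicate 2 fell just under wt replicate 1, and replicate 3 was the highest by far. The log2 fold change was 0.74 (SE 0.31; edgeR unadjusted p = 0.0409, adjusted p = 0.615), and 0.42 without Dyrk1a+/- replicate 3. The window before its start, chr4:53779451-53779700 on the plus strand of GRCm38.p6, is shown because it is the only midbrain gene under an unadjusted p of 0.05 (capitals as above).
Tal2: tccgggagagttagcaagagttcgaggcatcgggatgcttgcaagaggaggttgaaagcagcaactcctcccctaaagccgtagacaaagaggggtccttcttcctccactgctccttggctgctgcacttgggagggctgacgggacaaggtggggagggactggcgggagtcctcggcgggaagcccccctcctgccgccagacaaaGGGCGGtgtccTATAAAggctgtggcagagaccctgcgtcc
It had TATAAA 30 to 25 bases before the start and GGGCGG at 41 to 36.

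Tal1, its relative, which blood and endothelial cells also express, was at 5.98, 5.24 and 4.84 CPM in wt and 4.93, 7.37 and 7.04 CPM in Dyrk1a+/- (log2 fold change 0.27, SE 0.179). Gata2, also active in endothelial and blood precursors, was at 1.61 ± 0.0763 and 1.64 ± 0.334 CPM (SD, n = 3 per genotype), and Gata3 at 1.83 ± 0.87 and 2.18 ± 0.483. These factors work together in midbrain and diencephalic GABAergic neurons. Their log2 fold changes were 0.028 (SE 0.224) for Gata2 and 0.27 (SE 0.347) for Gata3, and the sign turned in 3 and 1 of 12 alternatives. The erythroid list summed to 729 to 931 CPM in wt and 491 to 712 in Dyrk1a+/-, with Hbb-bs and Hbb-bt the most abundant, while its transcription factors Gata1 and Klf1 had at most 0.336 CPM. The endothelial list, led by Kdr and Cldn5, summed to 235 to 265 and 225 to 255 CPM. Blood genes thus had lower sums in all Dyrk1a+/- libraries while Tal1 had a higher mean, and their part in the level of Tal1 was not tested.

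The paired-box genes Pax3 and Pax7 mark the dorsal midbrain and pretectum. Pax3 was at 1.62, 1.67 and 1.07 CPM in wt and 2.08, 1.69 and 2.35 CPM in Dyrk1a+/-, without overlap (log2 fold change 0.48, SE 0.246; edgeR unadjusted p = 0.0836). Pax7 had 0.20 (SE 0.443), from 0.430 CPM in wt replicate 3 to 1.33 CPM in Dyrk1a+/- replicate 3. The forkhead genes of the ventral midline, Foxa1 and Foxa2, had 0.050 (SE 0.292) and 0.64 (SE 0.415). The signs of Pax7 and Foxa1 turned in 2 and 3 of 12 alternatives.

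The engrailed genes were lower on average in Dyrk1a+/-, from few reads. En1 had 6, 13 and 6 counts in wt and 2, 4 and 1 in Dyrk1a+/-, and En2 had 5, 23 and 16 against 5, 4 and 6. En1 did not overlap between genotypes and En2 did. In both, wt replicate 2 was the highest, as it was for Gata3, while the other midbrain members were highest in Dyrk1a+/- replicate 2 or 3. Among midbrain genes that are not members, wt replicate 2 was highest for Th (4.24 CPM, against 2.08 to 3.73 in the 5 others), the dopamine transporter Slc6a3 (3.25 CPM, against 1.35 to 2.33), Ddc and Pax5. Slc18a2 was highest in Dyrk1a+/- replicate 3, and Helt and Lmx1b in Dyrk1a+/- replicate 2. Helt was lowest in wt replicate 2, where Pitx3, Wnt1 and Pax2 had 0 counts. Of the 7 tested genes in that other midbrain list 3 were positive, with a median of -0.10, and 0 had an edgeR unadjusted p under 0.05. Its most abundant genes were Slc18a2 (32.9 and 33.6 CPM in wt and Dyrk1a+/-) and Ddc (6.14 and 5.72 CPM). The sums of the 10 midbrain members, 16.0, 18.1 and 12.9 CPM in wt and 15.2, 18.6 and 21.6 CPM in Dyrk1a+/-, overlapped between genotypes.

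Zic1 and Zic4, zinc-finger genes transcribed from opposite strands of 1 locus on chromosome 9 (91358058 to 91365810 and 91362413 to 91389348), had nearly the same difference. Zic4 was at 86.9, 88.1 and 83.6 CPM in wt and 95.5, 94.8 and 96.8 CPM in Dyrk1a+/-. Relative to the mean, this was the tightest pattern of the set, at 1815 to 2849 counts per library. The genotypes did not overlap, with an SD of 2.33 and 1.03 CPM. The log2 fold change was 0.15 (SE 0.065; edgeR unadjusted p = 0.0444, adjusted p = 0.625), and it stayed between 0.13 and 0.16 in the 12 alternatives. Zic1 was at 195, 206 and 190 CPM in wt and 213, 190 and 253 CPM in Dyrk1a+/-, with the same log2 fold change of 0.15 (SE 0.105) and a wider spread. The 2 genes share 60 exon bases. Meninges also express Zic genes. The meningeal list, led by Col3a1 and Col1a2, summed to 454 to 535 CPM in wt and 401 to 443 CPM in Dyrk1a+/-. The window before the RefSeq start of Zic4 is at chr9:91368722-91368971 on the plus strand of GRCm38.p6. It is shown because Zic4 CPM, relative to its mean, varied least within genotypes among the 8 genes of lowest p. It precedes a start inside the GENCODE gene.
Zic4: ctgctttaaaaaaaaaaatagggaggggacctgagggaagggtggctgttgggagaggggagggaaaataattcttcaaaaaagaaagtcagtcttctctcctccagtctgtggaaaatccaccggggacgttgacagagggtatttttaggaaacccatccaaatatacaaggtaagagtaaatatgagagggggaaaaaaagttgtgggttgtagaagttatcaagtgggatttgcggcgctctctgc
It had no match to the 6 motifs, 44.4% GC and 4 CpG dinucleotides.

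Differences inside the separated pair and inside the remaining 4 libraries are given for the 8 genes of lowest p. These genes were chosen on the same 6 libraries, which favours 1 sign in both sets, so a shared sign is a description only. The log2 CPM differences, pair first, were 0.62 and 0.90 for Shox2, 0.53 and 0.58 for Barhl2 and 0.36 and 0.41 for Irx1. They were 0.83 and 1.04 for Rax, 0.48 and 0.62 for Pomc, 0.33 and 0.91 for Tal2, 0.18 and 0.14 for Zic4 and -0.45 and -0.51 for Pmch. Over all 35 members 22 were higher in both sets and 2 lower in both, with medians of 0.30 and 0.26. Over the 19339 genes tested with counts in every library, 32.1% were higher in both, with medians of 0.011 and -0.00011. Genes whose sets differed in sign included Gata3 (1.41 and -0.18), Pax7 (1.28 and -0.21) and Hmx3 (-0.48 and 1.00).

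**Figure D5:**
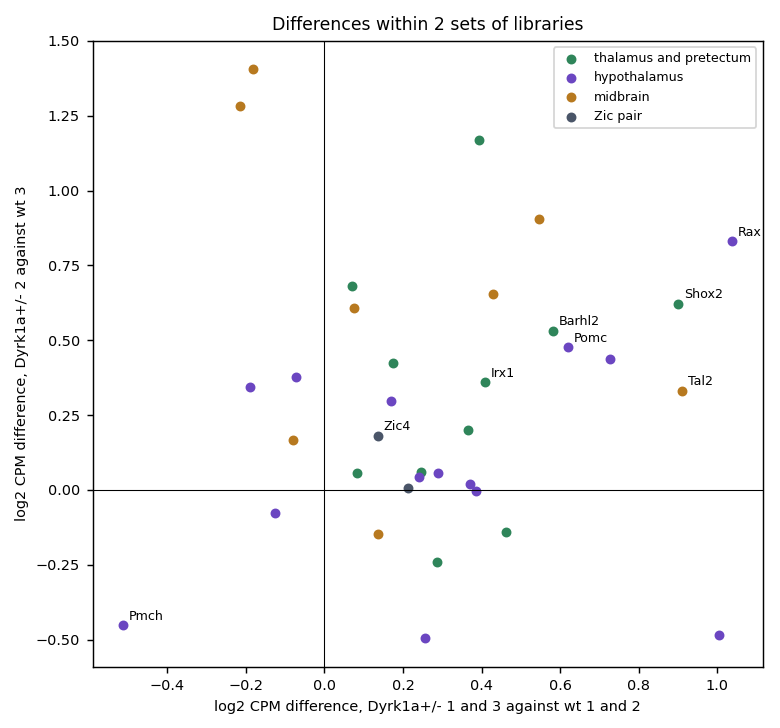
Log2 CPM difference between genotypes within the 4 libraries that lay together (x axis) and within the pair that stood apart (y axis), 1 point per tested gene coloured by region. Shox2, Rax, Barhl2, Pomc, Irx1, Tal2 and Zic4 lie above 0 on both axes and Pmch below 0 on both, as choosing them by p over the same libraries favours.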

How the data were processed

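Deposited values were raw counts per Ensembl gene for 6 forebrain libraries. Per the submitters' processing notes, the authors used bcl2fastq 2.17.1.14, HISAT2 on GRCm38, SAMtools 1.9 and HTSeq 0.9.1. Annotation release and strand setting: not given in the sources used here. The labels' protocols name a stranded total-RNA kit with ribosomal depletion and also polyA RNA. Since the strand setting is not given, counts of genes overlapping on opposite strands may be affected by the overlap. Symbols, positions and exon lengths came from GENCODE M21, which named 32888 of 33084 identifiers, and windows before start sites from RefSeq on GRCm38.p6.

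Genotypes were compared with edgeR 4.0.16 under R 4.3.3 (TMM, filterByExpr, quasi-likelihood test, genotype as the only term). Benjamini-Hochberg adjustment ran over all 19403 genes tested, with a threshold of 0.05. Intervals and SE come from the F statistic. DESeq2 1.42.0 and limma 3.58.1 were alternatives, with other scaling, no filter, a replicate block, a term for the pair of libraries and leaving out each library. Single-gene exact permutation tests used CPM. No 2 libraries agreed within sampling noise (chi-square over its degrees of freedom at least 4.55). P-values measure the spread between these samples, which the labels call biological replicates. Libraries held 18699434 to 32865708 counts.

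Members and lists were chosen with earlier results of these data known, so their counts are descriptions, and no set test was run. All members are named, with full statistics for the 8 of lowest unadjusted p, and the 2 most abundant genes of each other list. Other genes of those lists named singly were chosen after their values were seen. Hoxa4, Hoxa5, Hoxb7, Hoxb8, Fev, Gh, Prl and Fshb were not analysed here. Some items are not reported here.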

Additional observations from a re-analysis of the deposited data

How the results depend on the processing

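Over all genes edgeR called 2 as designed, 4 with no low-count filter and 6 with the separated pair as a term, and DESeq2 called 27. With 1 library left out the count ran from 0 to 5. With replicate number as a block 0 genes passed edgeR's test (1110 at an unadjusted p under 0.05). Deviations of same-numbered libraries correlated at 0.20, -0.32 and -0.16, and those of wt replicate 3 and Dyrk1a+/- replicate 2 at 0.45. With 3 libraries per genotype such values cannot show whether same-numbered samples were matched, so the block tests only a shared number. DESeq2 called 1 member, Shox2, and the other 11 alternatives called 0. Members at an unadjusted p under 0.05 numbered 7 as designed (7.88% of all genes), 2 with DESeq2 (3.82%), 2 with the replicate block (5.72%) and 12 with the term for the pair (15.7%). With 1 library left out they numbered 1 to 6, against 4.11% to 10.5% of all genes. The member median stayed between 0.16 and 0.27 in all 12 alternatives. Members with a negative log2 fold change numbered 3 as designed, 5 without wt replicate 1 or Dyrk1a+/- replicate 2, and 8 without wt replicate 3 or Dyrk1a+/- replicate 3. Of the 35 tested members 25 kept their sign in all 12 alternatives. Of the 35 tested members 22 were under 3 CPM on average.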
